A study of Sus scrofa with 20 samples.

Results

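The liver mRNA of boars with high fat androstenone was compared here with that of boars with low fat androstenone, across all named genes and across lists of liver functions. The 10 liver libraries, of 20 samples in the series, were chosen by their tissue label, with 5 libraries from high androstenone boars and 5 from low androstenone boars. All boars came from a Duroc cross with F2 animals whose F1 parents (Leicoma × German Landrace) had been mated to Large White, and they were labelled as 116 days old. The study took 1 library from the liver of each boar without pooling, so the replicates were separate animals. The groups were formed by the androstenone measured in fat, and boars with levels in between were not part of the comparison. The samples were pieces of whole liver, in which fewer cells of a type and less RNA per cell cannot be told apart.

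Androstenone is a pheromone steroid that Leydig cells of the testis make and that fat stores, and together with skatole it gives the meat of some boars an unpleasant odour called boar taint. The liver clears it. Hydroxysteroid dehydrogenases and aldo-keto reductases first reduce or oxidise the steroid, and sulfotransferases and glucuronosyltransferases then conjugate it for excretion. Cytochrome P450 enzymes and flavin monooxygenases do the same kind of work on drugs, skatole and other small molecules. Nuclear receptors such as the pregnane X receptor and the constitutive androstane receptor bind steroids and foreign compounds and regulate many of these enzymes.

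The deposited counts gave 21755 reference IDs, of which 6666 were paired with a gene symbol. Total counts lay between 5796973 and 26783002 per liver. A level of 3 counts in a library equals 0.112 to 0.518 CPM (its counts scaled to a common library size) by its total count alone. This floor depends on its depth, and a CPM below it was not separable from 0. The floor covers counting error only. Of the IDs, 15855 reached a sum of 10 counts across the livers and were tested, 5077 of them with a symbol. Values below are CPM after TMM scaling, which divided the CPM of each library by a factor between 0.743 (high replicate 3) and 1.18 (low replicate 4). The floor of the scaled values shifts by the same factor. Log2 fold changes are high over low androstenone at equal mapped share, which is the share of a library's reads that aligned, from edgeR's quasi-likelihood test with Benjamini-Hochberg adjustment over all 15855 IDs. Single genes were also tested by exact two-sided permutation of log2(CPM + 0.5), where 5 livers against 5 allow no p below 0.00794. These permutation p-values ignore the mapped share and were not adjusted for the number of genes. They lay under 0.05 for 25 of the 87 IDs that a fixed rule named, many of which the rule chose for a small p in the same comparison.

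No ID passed an adjusted p of 0.05 with a fold change of at least 1.5 in edgeR's quasi-likelihood test (0 of 15855, 0.0%). The smallest adjusted p in this edgeR test was 0.0802, and 5 IDs had an adjusted p under 0.10. Unadjusted p lay under 0.05 for 1225 IDs, 547 with a higher mean in high androstenone (3.45% of those tested) and 678 with a lower one (4.28%). Other tools gave other counts. DESeq2 with the same covariate passed 51 IDs (0.322%), 24 higher and 27 lower, and a likelihood ratio test that leaves out how much each ID varies between boars passed 193 (1.22%). Gene differences below are therefore given as values, and none of them passed the adjusted test of edgeR.

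The mapped share was related to many more IDs than the androstenone group was. Its coefficient had an adjusted p under 0.05 in edgeR for 4648 IDs (29.3%), of which 2402 rose and 2246 fell with a higher share. Without the covariate 465 IDs (2.93%) had an unadjusted p under 0.05, and the smallest adjusted p in edgeR was 0.9999. The order of the share over all 10 livers did not follow the groups. High replicate 3 had the highest share, and low replicate 5, high replicate 2 and low replicate 3 came next. These 4 livers, 2 from each group, are called the set of higher mapped share below, and the other 6 livers, 3 from each group, the set of lower mapped share. Within the set of lower mapped share, every high liver had a lower share than every low liver. Group and share cannot be told apart there, and differences within that set are not at equal share. High replicate 3 also had the highest total count. It had the highest CPM of the 10 livers in 18.6% of all IDs and in 316 (57.8%) of the 547 IDs that were higher in high androstenone at an unadjusted p under 0.05. Values without this library are given for several of the genes below.

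The 3 named genes with the smallest p among those higher in high androstenone were BTG3, HAL and TAGLN2. BTG3, a member of a family that slows cell division, was represented by a first ID (XM_003132741.1) at 27.7, 16.7, 24.8, 19.9 and 77.2 CPM in low replicates 1 to 5 and 59.6, 88.3, 478, 58.6 and 43.4 CPM in high replicates 1 to 5. High replicate 3 stood far above the other livers, but high replicate 2 also exceeded every low liver, and low replicate 5 overlapped with the high group. At equal mapped share the log2 fold change was 1.97 ± 0.32 (SE, edgeR adjusted p = 0.0802). The counts of the other BTG3 ID (NM_001097517.1) may include some of the same reads, and it gave 1.55. Without high replicate 3 the first ID gave 1.51, and the other high livers were all above low replicates 1 to 4. The differences in log2(CPM + 0.5) were 2.22 within the 4 and 1.33 within the 6 livers of higher and lower mapped share, and the groups did not overlap within either set.

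HAL (XM_001925061.1), histidine ammonia-lyase, which starts the breakdown of histidine, was at 9.94, 8.17, 16.8, 14.8 and 27.3 CPM in low replicates 1 to 5 and 22.8, 37.6, 195, 18.3 and 19.4 CPM in high replicates 1 to 5. Here too low replicate 5 lay inside the range of the high group, while within each set by mapped share every high liver exceeded every low one. HAL gave a log2 fold change of 1.63 ± 0.27 (SE, edgeR adjusted p = 0.0802), and 1.16 without high replicate 3. TAGLN2 (XM_003125672.1) encodes transgelin-2, a protein that binds actin filaments. Its level was 15.4, 9.12, 20.2, 15.1 and 49.1 CPM in low replicates 1 to 5 and 23.2, 69.4, 115, 33.4 and 62 CPM in high replicates 1 to 5. All high livers were above low replicates 1 to 4, and high replicates 1 and 4 were below low replicate 5. The means were 21.8 ± 15.8 CPM in the low and 60.6 ± 36 CPM in the high livers (SD, n = 5). The difference of 1.68 ± 0.29 (SE, edgeR adjusted p = 0.0992) lay between 1.47 and 1.87 without each liver in turn. The differences within the sets were 1.49 within the 4 and 1.46 within the 6 livers.

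Among all 15855 IDs, 108 (0.681%) had higher values in every high liver than in every low liver within both sets, and 168 (1.06%) had lower values in this sense. BTG3, HAL and TAGLN2 were among the 108. Of these IDs, 40 and 48 had a symbol. With 2 against 2 and 3 against 3 livers, many IDs separate within both sets by chance alone. Nothing is therefore read from these counts, or from the place of a gene among them. Over all 10 livers at once the groups did not overlap for 28 IDs (0.177%) that were higher and 52 IDs (0.328%) that were lower.

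**Figure D1:**
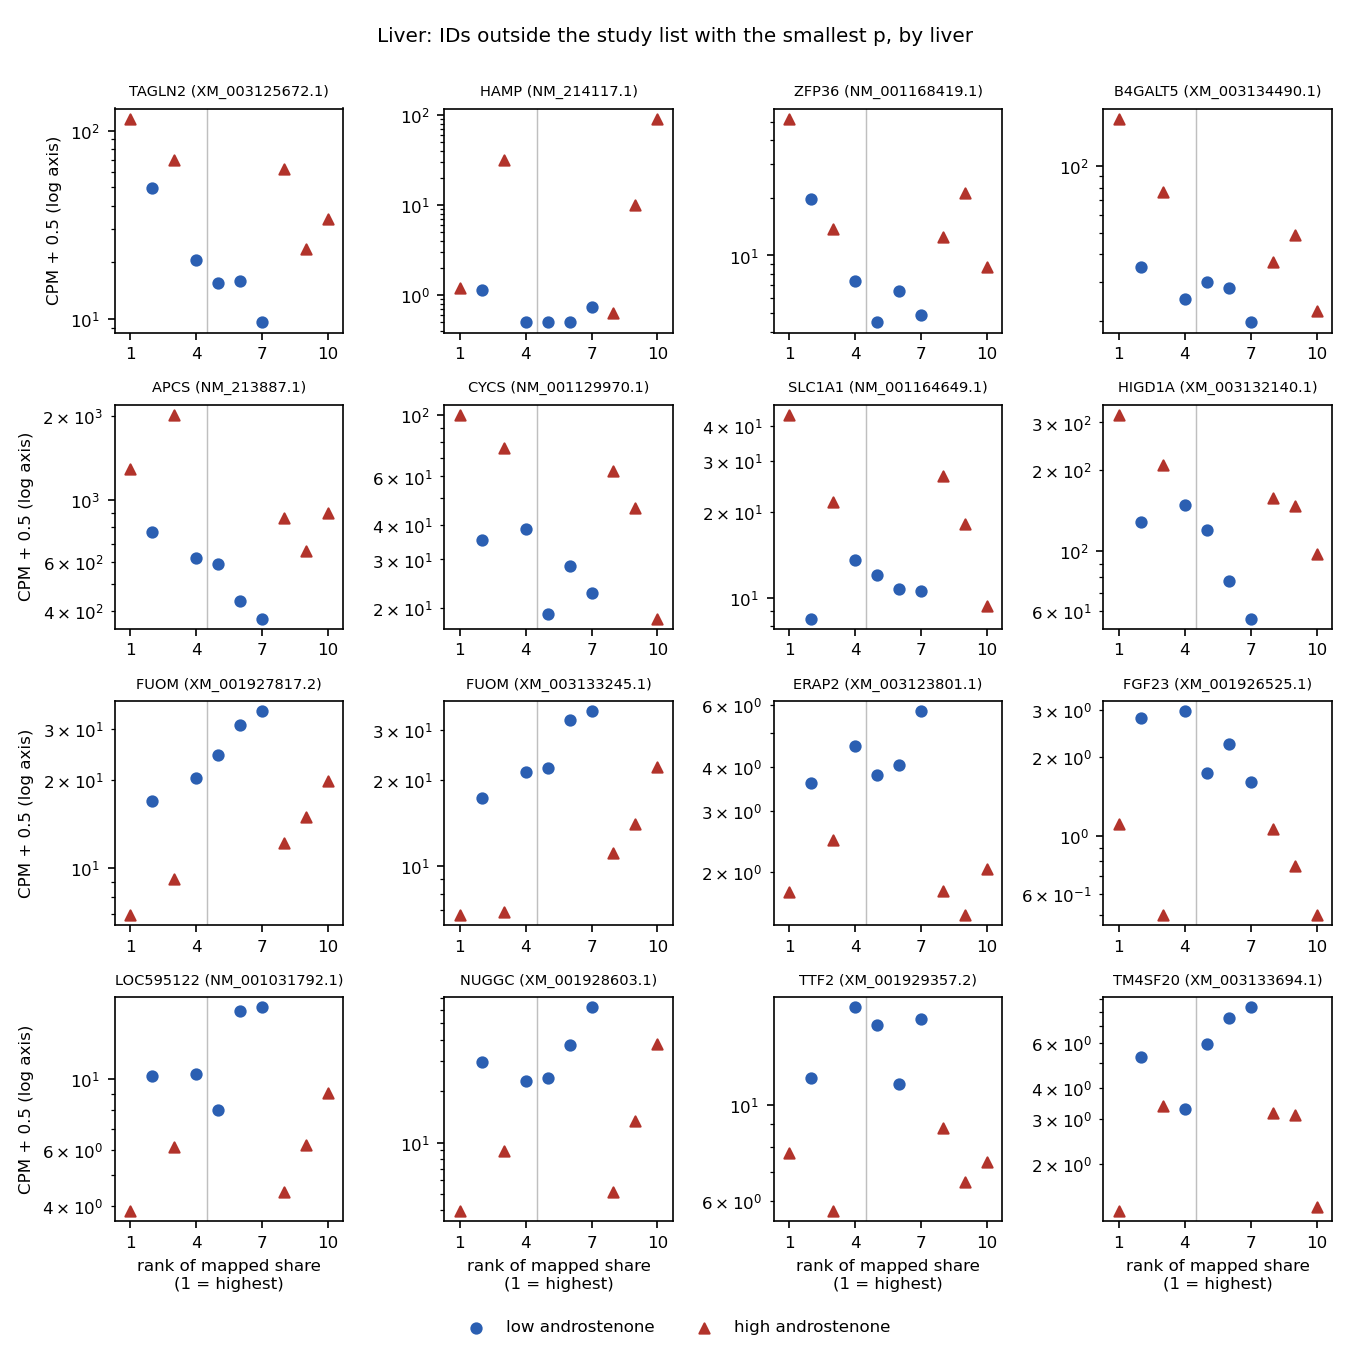
Each panel shows 1 reference ID in the 10 livers, with CPM + 0.5 on a log axis against the rank of the mapped share (1 is the highest share, and the grey line separates the 4 livers of higher from the 6 of lower share). Triangles are high and circles low androstenone livers. The 8 upper panels are IDs higher and the 8 lower panels IDs lower in high androstenone, and FUOM runs from 6.43 CPM in high replicate 3 to 33.9 CPM in low replicate 2.

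Several other genes with small p were higher in high androstenone. ZFP36 (NM_001168419.1), tristetraprolin, which marks short-lived mRNAs for decay, was at 6.05, 4.38, 6.9, 3.97 and 19.1 CPM in low replicates 1 to 5 and 20.7, 13.2, 51.3, 8.22 and 12 CPM in high replicates 1 to 5, a log2 fold change of 1.54 ± 0.32 (SE, edgeR adjusted p = 0.209). B4GALT5 (XM_003134490.1), a galactosyltransferase of glycolipid synthesis, ranged from 19.1 to 34.5 CPM in the low and 21.6 to 163 CPM in the high livers and gave 1.17 (edgeR adjusted p = 0.209). The highest high liver was replicate 3 in both genes. APCS (NM_213887.1), serum amyloid P component, a pentraxin that the liver secretes, was at 435, 376, 622, 590.4 and 767 CPM in low replicates 1 to 5 and 658, 2024, 1298, 899.7 and 861 CPM in high replicates 1 to 5. Only high replicate 1 fell inside the range of the low livers, and 4 of 5 high livers were above all of them. APCS gave a log2 fold change of 1.10 ± 0.25 (SE, edgeR adjusted p = 0.261) with an exact permutation p of 0.0159, and its highest liver was high replicate 2.

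CYCS (NM_001129970.1), cytochrome c of the respiratory chain, was at 18.5 to 38.2 CPM in the low and 17.8 to 99.9 CPM in the high livers, and 4 of 5 high livers were above all low livers while high replicate 4 was the lowest of all 10. Its log2 fold change was 1.10 ± 0.26 (SE, edgeR adjusted p = 0.261). SLC1A1 (NM_001164649.1), a glutamate transporter, gave 1.11 (edgeR adjusted p = 0.364), and HIGD1A (XM_003132140.1), a small mitochondrial protein, gave 0.87 (edgeR adjusted p = 0.379). In SLC1A1 the same 4 high livers exceeded every low liver, and high replicate 4 lay among the low livers.

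HAMP (NM_214117.1) had the largest fitted fold change of the named and listed genes at an unadjusted p under 0.05. It encodes hepcidin, the liver hormone that lowers iron uptake and release. Its level was 0, 0.249, 0, 0 and 0.638 CPM in low replicates 1 to 5 and 9.69, 31.4, 0.704, 91.3 and 0.141 CPM in high replicates 1 to 5. The 5 low livers held 13 HAMP counts in all and 3 of them held none, against 898 counts in the 5 high livers. The high livers were uneven, since replicates 1, 2 and 4 were far above every low liver while replicate 3 was close to low replicate 5 and replicate 5 was below it. The log2 fold change was 6.52 ± 1.36 (SE, edgeR adjusted p = 0.209), with an exact permutation p of 0.0317, and its size depends on the few low counts, so it is no measure of the fold.

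Among the named genes lower in high androstenone, FUOM had the smallest p. FUOM encodes fucose mutarotase, which interconverts forms of the sugar fucose, and had 2 IDs that may share reads. The first (XM_001927817.2) was at 30.5, 33.9, 19.8, 23.8 and 16.4 CPM in low replicates 1 to 5 and 14.5, 8.68, 6.43, 19.3 and 11.7 CPM in high replicates 1 to 5. Within both sets by mapped share every high liver was below every low liver, and over all 10 livers 4 of 5 high livers were. Its level fell with a higher mapped share (coefficient -0.82 on the log2 scale per 10 percentage points, edgeR adjusted p = 0.00259). The log2 fold change at equal share was -1.19 ± 0.19 (SE, edgeR adjusted p = 0.0802), and -1.32 ± 0.22 (SE, edgeR adjusted p = 0.0802) for the second ID (XM_003133245.1). The first stayed between -1.25 and -1.13 when each liver was left out.

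In ERAP2, FGF23 and TTF2 the groups did not overlap over all 10 livers, each with the smallest exact permutation p of 0.00794. ERAP2 (XM_003123801.1), an aminopeptidase that trims peptides for presentation by MHC class I, was at 3.55, 5.28, 4.1, 3.29 and 3.11 CPM in low replicates 1 to 5 and 1.01, 1.98, 1.26, 1.54 and 1.27 CPM in high replicates 1 to 5. Its log2 fold change was -1.50 ± 0.28 (SE, edgeR adjusted p = 0.2). FGF23 (XM_001926525.1), a hormone of phosphate balance, was at 1.74, 1.1, 2.48, 1.23 and 2.31 CPM in low replicates 1 to 5 and 0.269, 0, 0.603, 0 and 0.564 CPM in high replicates 1 to 5, with a log2 fold change of -2.39 ± 0.51 (SE, edgeR adjusted p = 0.209). Its levels are low, and 2 high livers had no FGF23 read. TTF2 (XM_001929357.2), which releases RNA polymerase from DNA at the end of transcription, was at 10.6, 15.2, 16.3, 14.8 and 11 CPM in low replicates 1 to 5 and 6.13, 5.18, 7.24, 6.85 and 8.31 CPM in high replicates 1 to 5 and gave -1.02 ± 0.22 (SE, edgeR adjusted p = 0.209).

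NUGGC (XM_001928603.1), a nuclear GTPase, ranged from 22.4 to 61.6 CPM in the low and 3.47 to 37.2 CPM in the high livers and gave -1.83 (edgeR adjusted p = 0.209). TM4SF20 (XM_003133694.1), a tetraspan membrane protein, gave -1.58 (edgeR adjusted p = 0.261, exact permutation p = 0.0159). LOC595122 (NM_001031792.1) gave -1.22 (edgeR adjusted p = 0.209, exact permutation p = 0.0159). In each of these 3 IDs, 4 of 5 high livers were below all low livers. High replicate 4 was the exception for NUGGC and LOC595122.

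The genes were next grouped into 22 lists of liver functions, which held 460 tested IDs. Of these, 29 (6.30%) were higher and 35 (7.61%) were lower in high androstenone at an unadjusted p under 0.05, against 3.45% and 4.28% of all tested IDs. The lists hold SDS, BTG3, KRT78, KRT8, KRT18, LEAP2, HAL, NNMT, CDKN1A, FMO5, CYP7A1, HIST1H4K, MBL2, BCAM and HSD17B2, which the study had listed from these same livers, so these shares are not independent evidence. The mapped share had an adjusted p under 0.05 in edgeR for 173 (37.6%) of the 460, against 29.3% of all. No member passed the adjusted test of the androstenone comparison. The median log2 fold change was -0.03 over all IDs, of which 47.1% lay above 0.

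**Figure D2:**
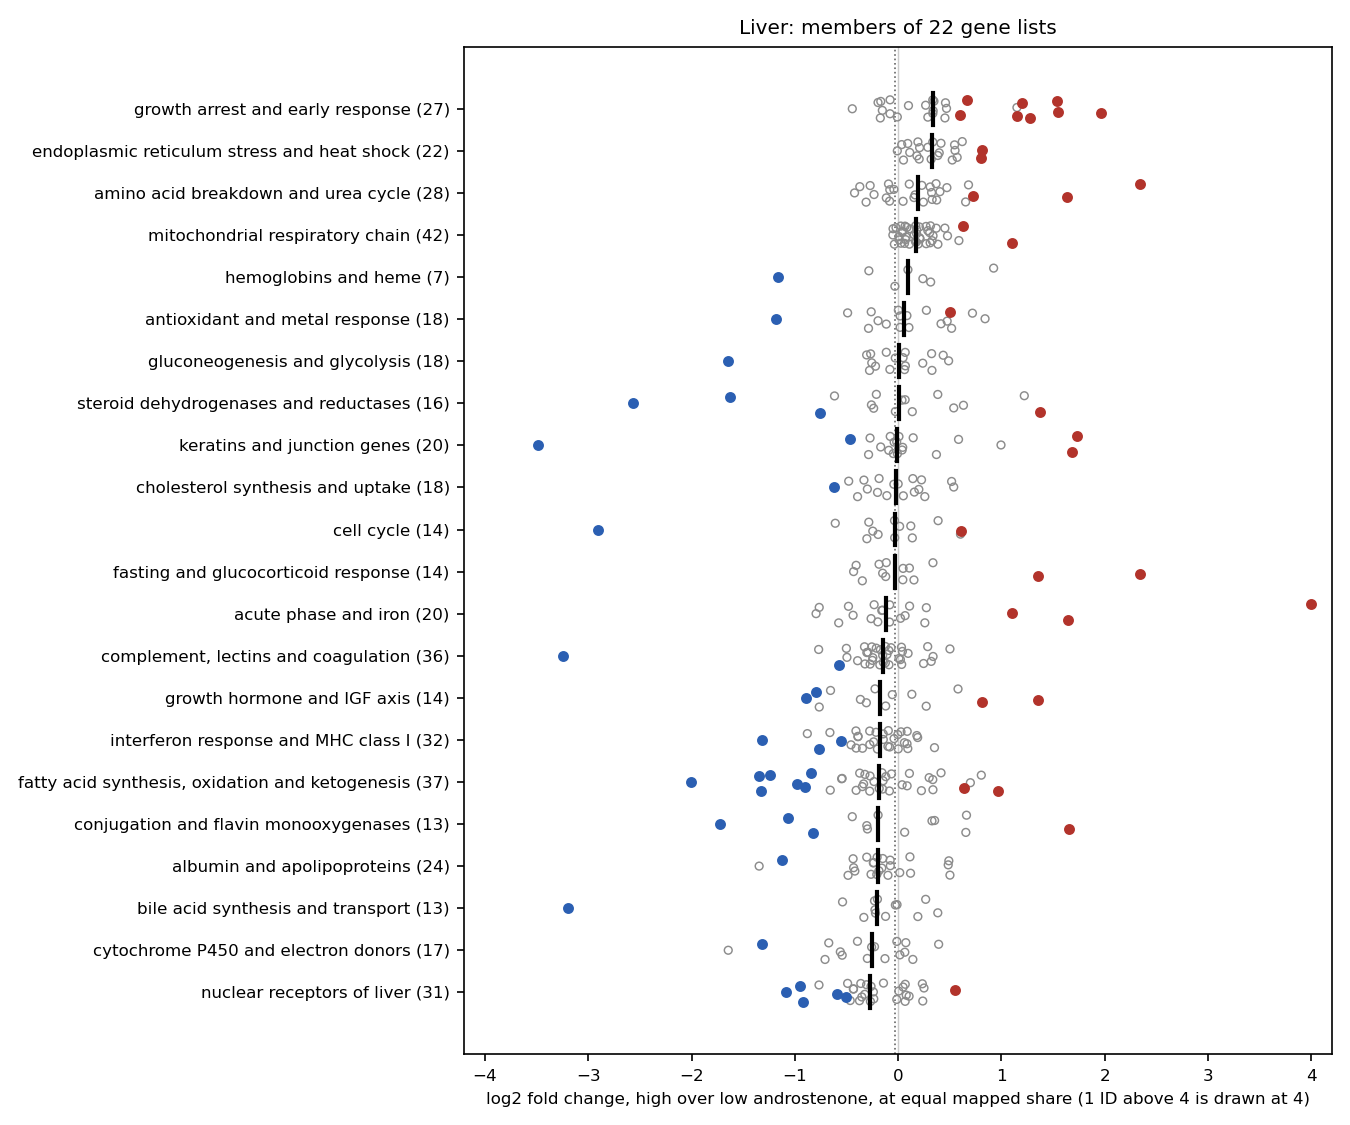
Log2 fold change of each tested ID in 22 lists, high over low androstenone at equal mapped share, with the number of IDs in brackets. Filled points have an unadjusted p under 0.05 in edgeR (red higher, blue lower), open points do not, thick bars are list medians, and the dotted line is the median of all IDs (-0.03). Growth arrest genes (0.34) and endoplasmic reticulum stress genes (0.33) have the highest medians, which fall to 0.18 and 0.16 without high replicate 3, and nuclear receptors the lowest (-0.27).

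Receptors and transcription factors that govern liver genes are described first. Of 31 IDs of nuclear receptors and liver-enriched factors, 1 was higher and 5 were lower at an unadjusted p under 0.05, with 21 of 31 below 0 and a median of -0.27, or -0.13 without low replicate 1. NR1I2 (NM_001038005.1), the pregnane X receptor, which responds to steroids and drugs, was at 56.5, 58.4, 63.8, 73 and 57.6 CPM in low replicates 1 to 5 and 47.7, 36.4, 42.6, 31.7 and 46.6 CPM in high replicates 1 to 5. Every high liver was below every low liver, with means of 61.9 ± 6.82 CPM in the low and 41 ± 6.83 CPM in the high livers (SD, n = 5). The log2 fold change of NR1I2 was -0.59 ± 0.19 (SE, edgeR adjusted p = 0.487), with an exact permutation p of 0.00794. It varied little between livers, and lay between -0.64 and -0.51 when each liver was left out. The coefficient of the mapped share for NR1I2 had an edgeR adjusted p of 0.989.

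HNF4A (NM_001044571.1), hepatocyte nuclear factor 4 alpha, a regulator of the hepatocyte's own genes, showed the same pattern at 19.1, 17.5, 21.7, 21.1 and 23.4 CPM in low replicates 1 to 5 and 17.4, 15.8, 12, 13.9 and 13.2 CPM in high replicates 1 to 5. The groups did not overlap, although low replicate 2 and high replicate 1 were close. HNF4A gave a log2 fold change of -0.50 ± 0.20 (SE, edgeR adjusted p = 0.583), and the exact permutation p was 0.00794. NR1I3 (NM_001037996.1), the constitutive androstane receptor, was at 23.9, 26.2, 26.2, 24.8 and 36.3 CPM in low replicates 1 to 5 and 16.5, 12.9, 9.6, 25 and 13.5 CPM in high replicates 1 to 5. Its high replicate 4 lay within the range of the low livers, and the other high livers lay below them. For NR1I3 the log2 fold change was -0.93 ± 0.25 (SE, edgeR adjusted p = 0.402) and the exact permutation p was 0.0238.

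NR1H4 (XM_001928800.2), the bile acid receptor FXR, was the 1 ID of this list that was higher at an unadjusted p under 0.05, with 0.55 (edgeR adjusted p = 0.526, exact permutation p = 0.198). NR0B2 (XM_003127720.1), a repressor of bile acid synthesis that FXR induces, gave 0.23 (edgeR adjusted p = 0.908). The glucocorticoid receptor NR3C1 gave -0.32 (exact permutation p = 0.0476, edgeR adjusted p = 0.718), and the fatty acid receptor PPARA gave -0.31 (edgeR adjusted p = 0.78). RARA (XM_003131473.1), a retinoic acid receptor, was also lower at an unadjusted p under 0.05, at -1.08 (edgeR adjusted p = 0.631). Low replicate 5 was the highest liver for NR1I3.

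The steroid dehydrogenases and reductases, which act on androstenone and related steroids, had a median of 0.00 over 16 IDs, with 8 above and 8 below 0. At an unadjusted p under 0.05, 1 was higher and 3 were lower. AKR1C1 is an aldo-keto reductase of steroids, and one of its IDs (NM_001044618.1) was at 26.6, 22.4, 12.7, 22 and 21.2 CPM in low replicates 1 to 5 and 19, 12.9, 10.9, 11.3 and 8.45 CPM in high replicates 1 to 5. In 3 of 5 high livers it was below every low liver, and the log2 fold change was -0.76 ± 0.25 (SE, edgeR adjusted p = 0.491). The other AKR1C1 ID (NM_001044569.1) had a difference of the opposite sign, 0.63 (edgeR adjusted p = 0.682), and AKR1CL1 (NM_001038626.2) gave -0.62 (edgeR adjusted p = 0.707). These genes are alike in sequence, and their counts may share reads.

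HSD3B1 (NM_001004049.1), a 3-beta-hydroxysteroid dehydrogenase, was at 5.91, 15.8, 2.37, 2.6 and 4.94 CPM in low replicates 1 to 5 and 1.82, 0.609, 2.66, 3.6 and 1.27 CPM in high replicates 1 to 5. Low replicate 2 was far above the other livers, and the values of the groups overlapped. HSD3B1 gave a log2 fold change of -1.63 ± 0.49 (SE, edgeR adjusted p = 0.429), between -2.45 and -1.02 when each liver was left out. HSD17B2 (NM_001167649.1), which inactivates androgens and oestrogens, was at 105, 139.8, 5.5, 8.76 and 8.21 CPM in low replicates 1 to 5 and 10.6, 5.79, 5.48, 11.3 and 3.1 CPM in high replicates 1 to 5. Only low replicates 1 and 2 were high, and the other 3 low livers were at the level of the high livers. Its log2 fold change of -2.57 (edgeR adjusted p = 0.414) had an exact permutation p of 0.167. Within the sets the differences were -0.24 within the 4 and -2.73 within the 6 livers.

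DHRS4 (NM_214019.1), a carbonyl reductase of retinoids and steroids, was the one member that was higher at an unadjusted p under 0.05, with 1.37 (edgeR adjusted p = 0.603). Left out in turn, the livers gave DHRS4 values between 0.80 and 2.01, the lowest without high replicate 5 and the highest without low replicate 3. It ranged from 15 to 347 CPM in the low and 46.1 to 487 CPM in the high livers and the groups overlapped. HSD11B1 (NM_214248.1), which regenerates active glucocorticoid, was at 1020.5 ± 318 CPM in the low and 848 ± 349.8 CPM in the high livers (SD, n = 5), a log2 fold change of -0.21 (edgeR adjusted p = 0.879). HSD17B4 (NM_214306.1) differed by -0.03, and the 2 HSD17B10 IDs by 0.04 and 0.07. For these IDs no difference was detectable beyond the spread between livers.

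Among 13 IDs of conjugating enzymes and flavin monooxygenases, 1 was higher and 3 were lower, with a median of -0.19. Without low replicate 2 this median was 0.020, and without low replicate 5 it was -0.080. FMO5 (XM_001928594.1), a flavin monooxygenase of the liver, was at 85.6, 121, 41.7, 55.9 and 198 CPM in low replicates 1 to 5 and 27.4, 45.2, 23.7, 41.9 and 8.88 CPM in high replicates 1 to 5. Only high replicates 2 and 4 reached the range of the low livers, and the log2 fold change was -1.72 ± 0.45 (SE, edgeR adjusted p = 0.379). FMO1 (NM_214064.1), another flavin monooxygenase, had the opposite sign, 0.65 (edgeR adjusted p = 0.65).

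GSTA1 (NM_214389.1), a glutathione transferase of the hepatocyte, was at 2639.8, 3444, 1814, 2070.1 and 2845 CPM in low replicates 1 to 5 and 1888, 2149, 1346, 977 and 856 CPM in high replicates 1 to 5, with -0.83 (edgeR adjusted p = 0.545, exact permutation p = 0.0397). High replicates 1 and 2 lay inside the low range and the other 3 below it. NNMT (NM_001123146.1), which methylates nicotinamide, was higher at 16.8 to 93.6 CPM in the low and 63.5 to 674 CPM in the high livers, with 1.65 (edgeR adjusted p = 0.302). SULT2A1 (NM_001037150.1), the sulfotransferase of hydroxysteroids that conjugates androstenone metabolites, was at 614 ± 402 CPM in the low and 656 ± 211 CPM in the high livers (SD, n = 5). Its difference of 0.35 (edgeR adjusted p = 0.846, exact permutation p = 0.556) was smaller than the spread between livers.

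Cytochrome P450 enzymes and their electron donors had a median of -0.26 (-0.17 without low replicate 5), with 12 of 17 IDs below 0 and 1 lower at an unadjusted p under 0.05. That ID was CYP4A24 (NM_214424.1), a fatty acid hydroxylase, at 109, 155, 256, 115 and 456 CPM in low replicates 1 to 5 and 53, 192, 77.6, 49.5 and 14.1 CPM in high replicates 1 to 5. In 4 of 5 high livers it was below every low liver, and high replicate 2 was the exception. The log2 fold change was -1.32 ± 0.41 (SE, edgeR adjusted p = 0.455), with an exact permutation p of 0.0397. The enzymes that oxidise skatole did not pass an unadjusted p of 0.05. CYP2E1 (NM_214421.1) was at 3487 ± 1275 CPM in the low and 2161 ± 1522 CPM in the high livers (SD, n = 5), a log2 fold change of -0.67 (edgeR adjusted p = 0.762), and CYP2A19 (NM_214417.1) ranged from 0.108 to 50.9 CPM in the low and 0.457 to 48.1 CPM in the high livers and gave -1.65 (edgeR adjusted p = 0.704). CYB5A (NM_001001770.1), cytochrome b5, gave -0.30 (edgeR adjusted p = 0.848). CYP2C33 (NM_214414.1) rose with the mapped share (coefficient 1.61, edgeR adjusted p = 7.24e-04), and its log2 fold change between the groups was 0.39 (edgeR adjusted p = 0.798).

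**Figure D3:**
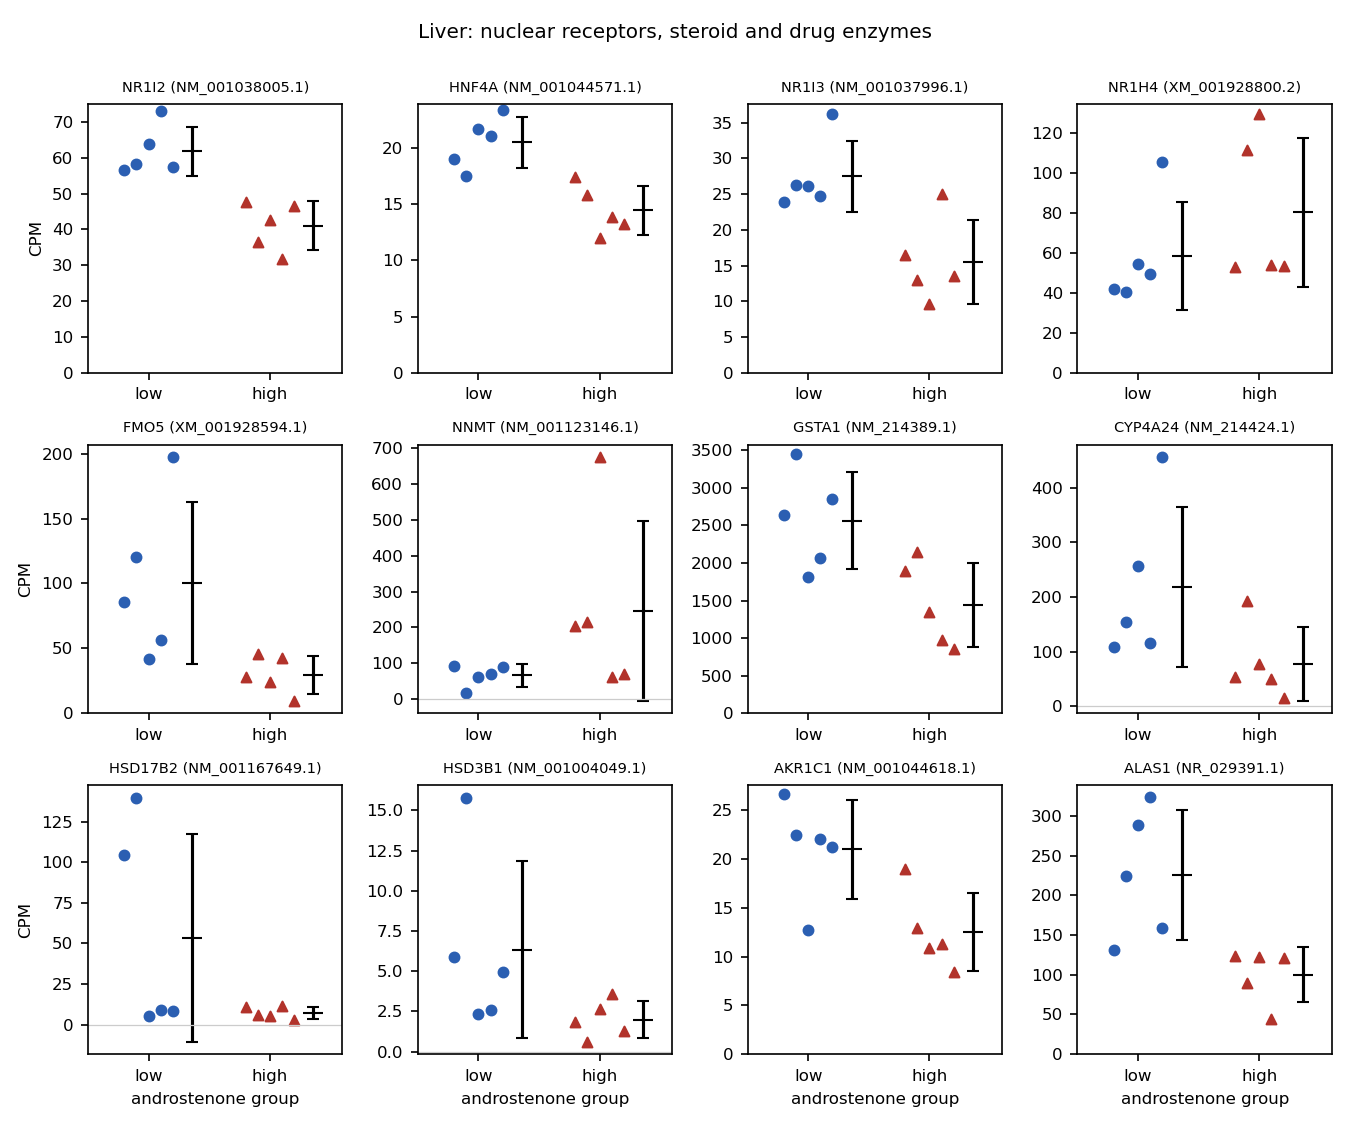
CPM of 12 reference IDs of nuclear receptors, heme synthesis and steroid or drug enzymes in the low (circles) and high (triangles) androstenone livers, with mean ± SD (n = 5) beside the points and a linear axis that includes 0. NR1I2, HNF4A and ALAS1 show no overlap between the groups, whereas HSD17B2 is high only in low replicates 1 and 2, at 105 and 140 CPM.

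ALAS1 (NR_029391.1), the enzyme that limits the rate of heme synthesis and so the supply of heme for P450 enzymes, was at 131, 224, 289, 324 and 159 CPM in low replicates 1 to 5 and 123, 89.5, 123, 44.3 and 121 CPM in high replicates 1 to 5. No high liver reached the lowest low liver, though 3 of them came close to it. Its log2 fold change was -1.16 ± 0.32 (SE, edgeR adjusted p = 0.409), with an exact permutation p of 0.00794 and a range between -1.30 and -0.98 without each liver in turn. ALAS1 was the one ID at an unadjusted p under 0.05 of 7 in the list of hemoglobins and heme.

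In bile acid synthesis and transport, 1 of 13 IDs was lower at an unadjusted p under 0.05 and the median was -0.20 (-0.048 without low replicate 2 and -0.065 without high replicate 5). The lower ID was CYP7A1 (NM_001005352.2), the rate-limiting enzyme of bile acid synthesis, at 3.13, 68.1, 0.539, 2.46 and 25 CPM in low replicates 1 to 5 and 2.69, 0.761, 0.201, 22.1 and 0.704 CPM in high replicates 1 to 5. It was high only in low replicates 2 and 5 and in high replicate 4, and the exact permutation p was 0.286. The covariate moved its log2 fold change from -1.98 to -3.20 (edgeR adjusted p = 0.526). The bile salt export pump ABCB11 (XM_003133457.1) gave -0.54 (edgeR adjusted p = 0.685), and the bile acid importer SLC10A1 (XM_001927695.2) gave -0.23 (edgeR adjusted p = 0.9).

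Of 37 IDs of fatty acid synthesis, oxidation and ketogenesis, 2 were higher and 7 lower at an unadjusted p under 0.05, with a median of -0.18. The median was -0.083 without low replicate 4 and -0.32 without high replicate 3. The 7 lower IDs were DGAT2, ACACA, FADS1, FADS2, SCD, CD36 and ACAA2. CD36 (NM_001044622.1), a fatty acid transporter, was at 6.61, 9.72, 7.33, 8.08 and 7.34 CPM in low replicates 1 to 5 and 4.17, 5.33, 6.03, 2.4 and 3.8 CPM in high replicates 1 to 5, without overlap between the groups (exact permutation p = 0.00794). Its log2 fold change was -0.84 ± 0.24 (SE, edgeR adjusted p = 0.414). DGAT2 (NM_001160080.1), which makes triglycerides, was at 119, 79.3, 114, 129.5 and 28.9 CPM in low replicates 1 to 5 and 44.4, 18.1, 52, 38.7 and 29.9 CPM in high replicates 1 to 5 and gave -1.35 ± 0.36 (SE, edgeR adjusted p = 0.389). Low replicate 5 was the only low liver in the range of the high livers.

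ACACA (NM_001114269.1), which makes malonyl-CoA for new fatty acids, gave -0.97 (edgeR adjusted p = 0.414, exact permutation p = 0.119). The desaturases FADS1, FADS2 and SCD gave -1.25, -2.0 and -0.90, with exact permutation p of 0.0635, 0.317 and 0.206. ACAA2 (NM_001167638.1), the last step of mitochondrial fatty acid oxidation, ranged from 144 to 355 CPM in the low and 46.2 to 195 CPM in the high livers, with -1.33 (edgeR adjusted p = 0.414). On the other side, ACADM (NM_214039.1), the first step of medium-chain oxidation, was at 429, 258, 487, 231 and 505 CPM in low replicates 1 to 5 and 487, 1100.3, 809.5, 590.5 and 549 CPM in high replicates 1 to 5. For ACADM 4 of 5 high livers were above every low liver, and the log2 fold change was 0.96 ± 0.25 (SE, edgeR adjusted p = 0.379). ACSL3 (NM_001143698.1), which activates long-chain fatty acids, was the other higher ID, with 0.64 (edgeR adjusted p = 0.553) and all high livers but replicate 4 above every low liver.

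In cholesterol synthesis and uptake 1 of 18 IDs, MVK (XM_001929184.2), mevalonate kinase, was lower at an unadjusted p under 0.05, with -0.63 (edgeR adjusted p = 0.603), and the list median was -0.02. Gluconeogenesis and glycolysis had a median of 0.01, and the 1 lower of 18 IDs, FBP2 (NM_001167632.2), was at most 1.6 CPM in any liver. FBP1 (NM_213979.1), the fructose bisphosphatase of liver gluconeogenesis, gave 0.24 (edgeR adjusted p = 0.899).

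Amino acid breakdown had 3 higher and 0 lower of 28 IDs, with a median of 0.20. The median was 0.045 without high replicate 1, 0.086 without low replicate 1, 0.093 without low replicate 2 and 0.12 without high replicate 4. Besides HAL the higher IDs were SDS and CDO1. HAL and SDS were on the study's own list, which was drawn from these livers, so the count is not independent evidence of the direction. SDS (XM_001928302.2), serine dehydratase, which turns serine into pyruvate, was at 6.4, 18.7, 21.7, 33.3 and 79.8 CPM in low replicates 1 to 5 and 133, 124, 168, 232 and 33.8 CPM in high replicates 1 to 5. In 4 of 5 high livers SDS exceeded every low liver, and high replicate 5 was the exception. At equal mapped share it gave 2.34 ± 0.57 (SE, edgeR adjusted p = 0.293), and 2.57 without high replicate 3. CDO1 (NM_001167643.1), which oxidises cysteine, gave 0.72 (edgeR adjusted p = 0.603), with an exact permutation p of 0.563 and its highest value, 1826 CPM, in high replicate 3. The urea cycle enzyme ARG1 gave 0.37 (edgeR adjusted p = 0.821), and NAGS, which switches the cycle on, gave -0.42 (edgeR adjusted p = 0.734). Without the covariate the median of this list was 0.07.

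Growth arrest and early response genes had a median of 0.34, with 19 of 27 IDs above 0. It was the highest of the 22 lists, close to that of endoplasmic reticulum stress (0.33). Without high replicate 3 it was 0.18, below hemoglobins and heme (0.36) and amino acid breakdown (0.23). At an unadjusted p under 0.05, 8 IDs were higher and 0 lower, namely both BTG3 IDs, ZFP36, CDKN1A, BTG2, IER3, IER2 and EGR1. Both BTG3 IDs and CDKN1A were on the study's own list, which was drawn from these livers, so the count is not independent evidence of the direction. CDKN1A (XM_001929558.1), the cell cycle inhibitor p21, was at 9.8, 8.42, 14.4, 10.8 and 38.1 CPM in low replicates 1 to 5 and 19.4, 35.5, 188, 8.39 and 12 CPM in high replicates 1 to 5. It was 188 CPM in high replicate 3, whereas high replicates 1, 2 and 5 lay in the range of the low livers and replicate 4 just below it, with 1.27 (edgeR adjusted p = 0.209) and an exact permutation p of 0.333.

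BTG2 (NM_001097505.1), of the same family as BTG3, was at 82.9, 38.3, 31, 36.6 and 65.1 CPM in low replicates 1 to 5 and 76.6, 64.9, 332, 93 and 51.4 CPM in high replicates 1 to 5 and gave 1.15 (edgeR adjusted p = 0.497, exact permutation p = 0.0794). EGR1 (XM_003123974.1), an early response transcription factor, was at 15.9, 16.9, 11.9, 10.1 and 15.1 CPM in low replicates 1 to 5 and 22.1, 11.9, 26.6, 26.7 and 18.9 CPM in high replicates 1 to 5 and gave 0.59 (edgeR adjusted p = 0.605). In EGR1 4 of 5 high livers exceeded every low liver. Without high replicate 3 the values were 0.89 for CDKN1A, 0.45 for BTG2 and 0.28 for EGR1. MDM2, a ubiquitin ligase, gave -0.20, JUN 0.45 and FOS 0.46 (edgeR adjusted p between 0.854 and 0.91 over these genes). The list median lay between 0.18 and 0.50 when each liver was left out.

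Genes of endoplasmic reticulum stress and heat shock, which fold or clear unfolded proteins, had a median of 0.33. In this list 21 of 22 IDs lay above 0 (EIF2AK3 was the exception at -0.01), against 47.1% of all IDs, while 2 were higher at an unadjusted p under 0.05. XBP1 (NM_001142836.1), a transcription factor of the unfolded protein response, was at 171, 144, 212, 156 and 246 CPM in low replicates 1 to 5 and 241, 274, 467, 238 and 331 CPM in high replicates 1 to 5. High replicates 1 and 4 lay just below low replicate 5, and 3 of 5 high livers were above all low livers. XBP1 gave 0.80 ± 0.21 (SE, edgeR adjusted p = 0.379) with an exact permutation p of 0.0238, and it lay between 0.71 and 0.90 without each liver. CRELD2 (XM_003126783.1), a target of endoplasmic reticulum stress, gave 0.81 (edgeR adjusted p = 0.64). The chaperone HSPA5 (XM_001927795.2) gave 0.03 (edgeR adjusted p = 0.989), calreticulin (CALR, NM_001174133.1) gave 0.52 (edgeR adjusted p = 0.683) and HSP90AA1 (NM_213973.1) gave 0.55 (edgeR adjusted p = 0.768). The list median lay between 0.16, without high replicate 3, and 0.42 when each liver was left out. The list's score had an SD of 0.30 between livers of a group, close to the size of the median. Its members are not independent of each other, and no test of this list was made.

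Nuclear-coded genes of the mitochondrial respiratory chain gave small differences of mostly one sign. Of 42 IDs 38 lay above 0, with a median of 0.18. Only CYCS and SDHD, a subunit of succinate dehydrogenase, were higher at an unadjusted p under 0.05 and 0 were lower. SDHD (NM_001097516.1) gave 0.63 (edgeR adjusted p = 0.625), with an exact permutation p of 0.611. ATP5B (XM_001929410.2), the catalytic subunit of ATP synthase, gave 0.38 (edgeR adjusted p = 0.745), and its level rose with the mapped share (coefficient 1.73, edgeR adjusted p = 1.45e-04). The mapped share had an adjusted p under 0.05 in edgeR for 17 of these 42 IDs. Members of a list are not independent of each other, and no test of the list was made.

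Among secreted liver proteins, 3 of 20 acute phase and iron genes were higher (HAMP, APCS and LEAP2) and 0 lower at an unadjusted p under 0.05, while the median was -0.12. The median was -0.0021 without high replicate 2 and -0.30 without high replicate 3. LEAP2 (NM_213788.1), an antimicrobial and hormone peptide of the liver, was at 9.94 to 34.3 CPM in the low and 9.25 to 241 CPM in the high livers, with 1.65 (edgeR adjusted p = 0.261) and its highest value in high replicate 3. Haptoglobin (HP) gave 0.02, C-reactive protein (CRP) -0.26 and transferrin (TF) -0.16 (edgeR adjusted p = 0.995, 0.958 and 0.921). The transferrin receptor TFRC (NM_214001.1) gave -0.76 (edgeR adjusted p = 0.676).

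Complement, lectins and coagulation had 0 higher and 2 lower of 36 IDs, with a median of -0.15 (-0.056 without low replicate 5). MBL2 (NM_214125.1), mannose-binding lectin, was at 176, 24.1, 47.1, 2.74 and 4.23 CPM in low replicates 1 to 5 and 1.55, 3.81, 24.8, 3.94 and 3.1 CPM in high replicates 1 to 5. The groups overlapped and low replicate 1 was far above the rest, with -3.25 and a range between -4.29 and -1.73 without each liver (edgeR adjusted p = 0.455, exact permutation p = 0.159). F5 (NM_214120.1), coagulation factor V, gave -0.57 (edgeR adjusted p = 0.608, exact permutation p = 0.0476). Albumin and apolipoproteins had a median of -0.20 over 24 IDs (-0.080 without low replicate 2), and 0 were higher and 1 lower at an unadjusted p under 0.05. Albumin (ALB, NM_001005208.1) itself gave -0.08 (edgeR adjusted p = 0.974). Interferon response and MHC class I genes had 0 higher and 3 lower of 32 IDs (GBP2, CXCL9 and SLA-8), with a median of -0.17. This median rested on low replicate 3, without which it was 0.0066.

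The growth hormone and IGF axis had 2 higher and 2 lower of 14 IDs. IGFBP1 (NM_001195105.1), a binding protein that fasting induces, was at 17, 16.4, 2.16, 17.8 and 39.8 CPM in low replicates 1 to 5 and 50.3, 37.8, 123, 19.7 and 19.4 CPM in high replicates 1 to 5 and gave 1.35 (edgeR adjusted p = 0.528, exact permutation p = 0.0556). IGF1 (NM_214256.1), the growth factor that growth hormone induces in liver, gave 0.81 (edgeR adjusted p = 0.625), and its highest liver was high replicate 4. IGFBP3 (NM_001005156.1) and IGFBP5 (NM_214099.1) gave -0.79 and -0.89 (edgeR adjusted p = 0.575 and 0.553). The list median was -0.17 with and 0.04 without the covariate, and -0.027 without low replicate 1. The fasting and glucocorticoid list had 2 higher of 14 IDs, SDS and IGFBP1, with PCK1 at 0.05 and TAT at 0.15, and a median of -0.04.

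In the antioxidant list, SELENBP1 (XM_001929643.2), selenium-binding protein 1, was the 1 lower of 18 IDs at 408, 275, 269, 575 and 763 CPM in low replicates 1 to 5 and 206, 238, 242, 199 and 74.8 CPM in high replicates 1 to 5. The groups did not overlap, and the log2 fold change was -1.19 ± 0.33 (SE, edgeR adjusted p = 0.414) with an exact permutation p of 0.00794. TXNRD1 (NM_214154.2), thioredoxin reductase, was the 1 higher ID, with 0.50 (edgeR adjusted p = 0.563, exact permutation p = 0.0317). Keratins and junction genes had 2 higher and 2 lower of 20 IDs. KRT8 and KRT18, the keratin pair of hepatocytes, gave 1.73 and 1.68 at equal mapped share, and 1.10 and 1.09 without high replicate 3. Their edgeR adjusted p was 0.441 and 0.414, and their exact permutation p 0.341 and 0.0794. Both keratins were on the study's own list, which was drawn from these livers, so they are not independent evidence. The lower IDs were BCAM and DSP. BCAM (XM_003127227.1), a laminin receptor, gave -3.48 (edgeR adjusted p = 0.457, exact permutation p = 0.532). This value came from low replicate 1, and without that liver BCAM gave -0.50. DSP (XM_003128168.1), desmoplakin, gave -0.47 (edgeR adjusted p = 0.631). The cell cycle list had 1 higher and 1 lower of 14 IDs, the histones H2AFZ (0.61) and HIST1H4K (-2.91). The HIST1H4K level was 6.23 CPM in low replicate 2, and the other livers lay below 0.5 CPM.

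The 25 reference IDs that the study itself listed for liver were all tested. At equal mapped share 16 were higher and 9 lower, and 24 had an unadjusted p under 0.05 in edgeR, with adjusted p between 0.0802 and 0.685. They had been chosen on these same livers, so these counts are not independent evidence. The covariate changed the sign of 0 of them and made the standard error smaller for 24. The mapped share itself had an adjusted p under 0.05 in edgeR for 15 of the 25. It moved 4 of the log2 fold changes by over 0.58. LOC100512122 (XM_003130359.1) went from 3.96 to 2.63, IP6K1 (XM_001925759.2), an inositol phosphate kinase, from 3.36 to 2.67, and KRT78 (XM_001927194.2), a keratin of squamous epithelium, from 2.23 to 1.00. These 3 IDs had their highest level in high replicate 3, and without it LOC100512122 gave 0.68 and KRT78 0.61. IP6K1 was at only 2.865 CPM in that liver, where it lay apart from the other high livers. The exact permutation p was 0.5 for LOC100512122, 0.381 for IP6K1 and 0.722 for KRT78. The other was CYP7A1, as given with the bile acid genes. TSKU has 3 IDs that may share reads, and they gave -2.01, -2.25 and -2.06. Within both sets of livers 4 of the 25 were higher without overlap between groups, against 0.681% of all tested IDs. These were HAL, SDS and the 2 BTG3 IDs, which may share reads, and since the 25 were chosen on these livers nothing is read from the count. The study also measured BTG3, IP6K1, CYP7A1, FMO5 and HSD17B2 in liver by quantitative PCR. It did so in the sequenced boars and in other boars with high or low androstenone, and reported a similar pattern in both.

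**Figure D4:**
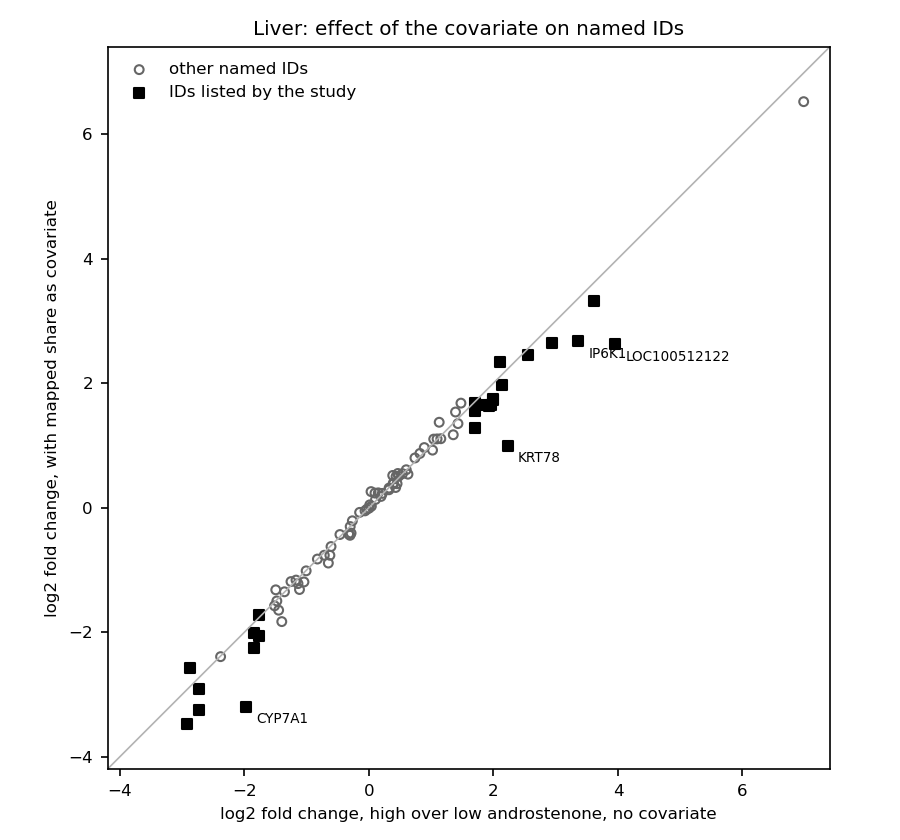
Log2 fold change of the named reference IDs with the mapped share as covariate (vertical axis) against the value without it (horizontal axis). Squares are the 25 IDs listed by the study, circles the other named IDs, and the line marks equal values. The 4 labelled squares moved by over 0.58, with CYP7A1 going to -3.20 and KRT78 to 1.00.

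Several genes outside the lists also separated the groups, and they were chosen after their values were seen. PLEK2 (XM_001928435.1), which binds membrane phosphoinositides, was higher in every high liver, at 12.9, 10.9, 11.8, 8.22 and 12.4 CPM in low replicates 1 to 5 and 13.7, 19.3, 30.7, 17.5 and 14.1 CPM in high replicates 1 to 5. CUL4A, a scaffold of ubiquitin ligases, was at 10.3 to 13.2 CPM in the low and 13.7 to 20.1 CPM in the high livers, and MRPS18C, a protein of the mitochondrial ribosome, at 15.3 to 18.7 CPM in the low and 20.5 to 30.7 CPM in the high livers, both without overlap. Within both sets by mapped share ACSS2, which makes acetyl-CoA from acetate, was lower with a log2 fold change of -0.73 (edgeR adjusted p = 0.457), and MUC13, a mucin of epithelia, was higher with 0.64 (edgeR adjusted p = 0.563). In all, 8 of the 28 IDs that were higher and 16 of the 52 that were lower without overlap over the 10 livers had a symbol. These counts were 0.177% and 0.328% of all tested IDs and did not exceed the rate of a random split (0.00794 over both directions). Separation of the groups in single genes is therefore no evidence by itself.

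DESeq2 passed 51 IDs (0.322% of the 15855 tested), of which 30 had a symbol and 13 were among the 460 list IDs. They included FUOM, both BTG3 IDs, HAL, TAGLN2, APCS, ERAP2, FGF23, XBP1, ACADM, NNMT, FMO5 and HAMP. Both BTG3 IDs, HAL, NNMT and FMO5 were on the study's own list, as were TSKU, SMPDL3A, CDKN1A and LEAP2, which DESeq2 also passed. The study drew that list from these same livers with DESeq, so these counts are not independent evidence. DESeq2 gave an adjusted p of 9.96e-07 for FUOM (XM_001927817.2), 8.11e-06 for BTG3 (XM_003132741.1), 0.00601 for APCS and 0.00601 for XBP1. In edgeR the adjusted p of XBP1 was 0.379 and that of APCS 0.261.

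Markers of the cell types that a piece of liver can hold were summed in each library. The 9 tested hepatocyte markers, among them ALB, APOA1 and TF, summed to between 76474 and 151439 CPM in the high and between 79550 and 199038 CPM in the low livers (exact permutation p = 0.603). Hepatocyte markers were thus present in every library. Markers of T, B and NK lymphocytes (9 tested of 15) summed to 18.4 ± 5.44 CPM in the high and 25.8 ± 7.23 CPM in the low livers (SD, n = 5). For lymphocytes the exact permutation p was 0.0714, and 0.714 after adjustment over the 10 lists. The highest sum, 38.3 CPM, was that of low replicate 5. Macrophage markers (6 tested of 14) summed to between 442 and 600 CPM in the high and between 389 and 566 CPM in the low livers, and cholangiocyte markers (6 of 10) to between 48.6 and 332 CPM and between 27.7 and 177 CPM. Stellate cell, endothelial, neutrophil, blood, squamous and pancreas markers overlapped in the same way, with exact permutation p between 0.317 and 0.889. Both cholangiocyte and squamous markers had their highest sum in high replicate 3. Across the 10 lists no sum had an exact permutation p under 0.05. The part of these cell types in the gene differences was not tested.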

How the data were processed

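Liver mRNA of 10 boars was sequenced as single reads after SMART cDNA amplification. Per the labels the authors used CASAVA 1.7, BWA and SAMtools. Per the study's methods the reference was pig RefSeq mRNA and UniGene sequences. How reads were counted and how reads matching several sequences were treated are not given in the sources used here. The deposited values were whole-number counts of reads per reference ID, without normalization, and 10 IDs repeated in each file were kept once. Symbols came from a RefSeq gene table, and for 12 IDs from the study's own liver list. No sequence or coordinate is given.

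IDs with at least 10 counts over the 10 livers were fitted in R 4.3.3 with edgeR 4.0.16 (quasi-likelihood F test, TMM factors, group and mapped share as terms, Benjamini-Hochberg adjustment). An ID was called where its adjusted p was under 0.05 and its groups differed 1.5-fold or more. The standard error is the log2 fold change divided by the root of F. The mapped share was computed from the study's read numbers. For high replicate 3 the percentages printed beside those numbers are the other way round. The read numbers were used, and the total of 26783002 deposited counts of that library lies close to its mapped reads. DESeq2 1.42.0 was an alternative, as were other filters, normalizations and dispersions, a replicate block, no covariate and leaving out each liver. Exact permutation tests used scipy 1.17.1 in Python 3.11.15 on log2(CPM + 0.5), and with 1 CPM as the other pseudocount. Scripts were tested on simulated data.

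The genes named in full were the 8 IDs with a symbol and the smallest p in each direction outside the study's list, with at least 1 CPM in one group. From each list the ID with the smallest p in each direction and that with the highest CPM were taken, and the 25 IDs of the study. Other list members, the genes outside the lists, the sets of 4 and 6 livers and the adjusted p bound of 0.10 were chosen after their values were seen. The comparison, its lists and its members were all chosen with earlier results of these data known. The lists share IDs, and their genes are not independent. Testis libraries were not used here, and some genes are not reported here.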

Additional observations from a re-analysis of the deposited data

Results flagged for a closer look

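Outlying livers were looked for in 83 IDs. These are not the same set as the 87 that the fixed rule named, which lack ACSL3, CRELD2 and NR1I3. In 10 of 166 groups of 5 livers, 1 liver lay apart from its nearest neighbour. The gap exceeded the Dixon limit of 0.71 of the group's range on the log2(CPM + 0.5) scale. Chance flags about 1 in 20 such groups. In the low group these were low replicate 5 for CRELD2 (2.233 CPM) and NR1I3 (36.29 CPM), low replicate 2 for HIST1H4K (6.228 CPM) and NNMT (16.84 CPM), low replicate 1 for BCAM (4.658 CPM) and low replicate 3 for TXNRD1 (34.06 CPM). In the high group they were high replicate 4 for ACSL3 (18.32 CPM) and IGFBP5 (6.848 CPM), high replicate 5 for SELENBP1 (74.81 CPM) and high replicate 3 for IP6K1 (2.865 CPM). High replicate 3 gave 1 of the 10.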

How the results depend on the processing

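The count of IDs passing an adjusted p of 0.05 and a fold of 1.5 was 0 with TMM or RLE factors, the stricter filter, robust dispersion, summed IDs, the replicate block and no covariate. It was 5 without a filter on low counts, 51 with DESeq2 and 193 with the likelihood ratio test on the trended dispersion, and the cause was not tested. At an adjusted p under 0.10 with no fold threshold, a bound chosen after seeing the data, it was 5. Leaving out each liver gave 0 to 2, and the 2 without high replicate 2 were HAL (adjusted p = 0.0273 in edgeR) and BTG3 (adjusted p = 0.0273 in edgeR). IDs at an unadjusted p under 0.05 numbered 1225 with and 465 without the covariate, and 844 to 1459 when each liver was left out. Those in the pathway lists numbered 64 with and 42 without the covariate, and 53 to 76 when each liver was left out.

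The mapped share had an adjusted p under 0.05 in edgeR for 4648 IDs, for 768 with the replicate block, for 2937 without high replicate 3, and for 2937 to 4879 when each liver was left out. Deviations of same-numbered livers from their group means had correlations between -0.26 and 0.403. The 0.403, of replicate 3, became -0.12 when the mapped share was also taken out. Such correlations cannot show whether the numbers pair the boars. The replicate block gave 0 calls and 911 IDs at an unadjusted p under 0.05 (428 higher and 483 lower). Its added terms leave little of the 10 livers for estimating the spread. Its counts, the 768 for the mapped share included, are therefore not directly comparable with those of the other settings. Of 1642 fits of 87 named IDs, 29 in 10 IDs had the other sign, all of small values. HSD17B4 went to 0.00203 with the replicate block and EIF2AK3 to 0.00096 without the covariate. When each liver was left out the log2 fold changes ran from -0.16 to 0.076 for HSD17B4, -0.049 to 0.41 for NR0B2, -0.21 to 0.19 for HP, -0.18 to 0.11 for ALB, -0.030 to 0.14 for TXNIP, -0.29 to 0.11 for EIF2AK3, -0.093 to 0.28 for IRF1, -0.018 to 0.25 for GHR, -0.23 to 0.93 for HBB and -0.17 to 0.048 for NDUFB8. When each liver was left out, the medians of 9 of 22 lists changed sign at least once, and of the 14 lists with a median beyond 0.1 in either direction 2 did, conjugation and flavin monooxygenases (to 0.020 without low replicate 2) and interferon response and MHC class I (to 0.0066 without low replicate 3). The 14 medians shrank most in acute phase and iron (to -0.0021 without high replicate 2) among those that kept their sign. List medians moved by more than 1 SD of the list's score between livers in 2 of 264 fits, to 0.04 for the growth hormone and IGF axis without the covariate and to 0.35 for the cell cycle without low replicate 2. This SD exceeded the size of the median in all lists but nuclear receptors, growth arrest and endoplasmic reticulum stress. In those other lists a median could reach 0 without counting as moved, so this count does not show that the medians are stable.

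The depth of 5796973 to 26783002 counts leaves genes below about 0.5 CPM close to 0, and 5 livers a group with 1 covariate limit the precision of every fold change.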
